A study of Danio rerio with 3 samples.

Results

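The genes described here are transcription factors and a signal that specify the liver in the zebrafish (Danio rerio) embryo. They are the fork-head factors foxa1, foxa2 and foxa3, the homeobox factors hhex, prox1a and hnf1ba, the nuclear receptor hnf4a, the leucine zipper factor cebpa, the SOX factor sox9b and the secreted ligand wnt2bb. They were listed by symbol, and a probe was taken as theirs where its accession belonged to that symbol in a RefSeq gene table. Of the 10 listed genes, 9 were found, with 12 probes among the 43603 distinct probes of the array and 9 of the 11668 genes named there. No probe was matched to hnf1ba, which is not analysed here.

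RNA of whole embryos at 22 hours post fertilization (hpf) was compared on 3 Agilent arrays with 2 colours each. The morphant group was injected at the 1-cell stage with 2 to 3 nl of MO-grnA, a morpholino (an antisense oligomer) against granulin A, a zebrafish relative of the secreted growth factor progranulin. The wild-type (WT) group is labelled as having had no treatment, so the injection itself is part of every ratio. Each replicate is labelled as having used 200 embryos per group, and 1 array held both RNAs of a replicate, labelled from 1 µg of total RNA. The array called replicate 3 here is titled only as a dye swap. Its title does not say whether its RNA came from other embryos than that of replicates 1 and 2. The 3 arrays may therefore not be independent. Morphant RNA carried Cy5 on the arrays of replicates 1 and 2 and Cy3 on that of replicate 3.

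The liver arises from ventral foregut endoderm. FOXA factors open chromatin at endodermal genes, and wnt2bb, made by the neighbouring lateral plate mesoderm, is a signal that induces the liver fate. The first hepatoblasts are known by hhex and prox1a, while hnf4a and cebpa drive hepatocyte genes and sox9b marks the later biliary cells. All of these genes are also active elsewhere in the embryo. The FOXA genes are known from floor plate and other midline tissue, hhex from endothelium and the yolk syncytial layer, prox1a from lens and slow muscle, cebpa from myeloid cells, and sox9b from neural crest and the ear.

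Read by their brightest tested probes, 7 of these genes had lower transcript levels in morphants than in WT embryos. On these probes sox9b fell the most, by 3.79-fold, and hhex, hnf4a, foxa1, foxa2, foxa3 and cebpa fell by smaller amounts. The brightest probes of prox1a and wnt2bb did not pass the test, and no gene was higher. A probe passed where the adjusted p of limma's moderated test of the log2 ratio of morphant over WT was under 0.05, with Benjamini-Hochberg adjustment over 25066 tested probes. Of the 9 genes 7 were called lower, while 22.0% of 9227 named genes were called lower, 19.3% higher and 41.3% in either direction. The 9 genes were chosen with earlier results of these data known. With a gene's probes averaged, 6 were called lower, and foxa1 read 0.01 (adjusted p = 0.909 in limma). Of the 12 probes 7 were called lower and 1, the dimmer probe of foxa1, higher, beside 19.6% and 18.0% of all tested probes (37.6% in either direction). The median log2 ratio of the 9 genes was -0.45, with -0.54, -0.47 and -0.38 on replicates 1, 2 and 3, beside a median of 0 over all named genes. In whole-embryo RNA, fewer cells of a type and less RNA per cell cannot be told apart. These calls rest on loess normalization within arrays. With each array centred on its median instead, only sox9b was called of the 9 genes. The adjusted p of the other 6 genes called with loess then lay between 0.455 and 0.716 in limma. With that centring the arrays differed: the median of the 9 genes was 0.05 and -0.07 on replicates 1 and 2, and -0.82 on the dye-swapped replicate 3.

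**Figure D1:**
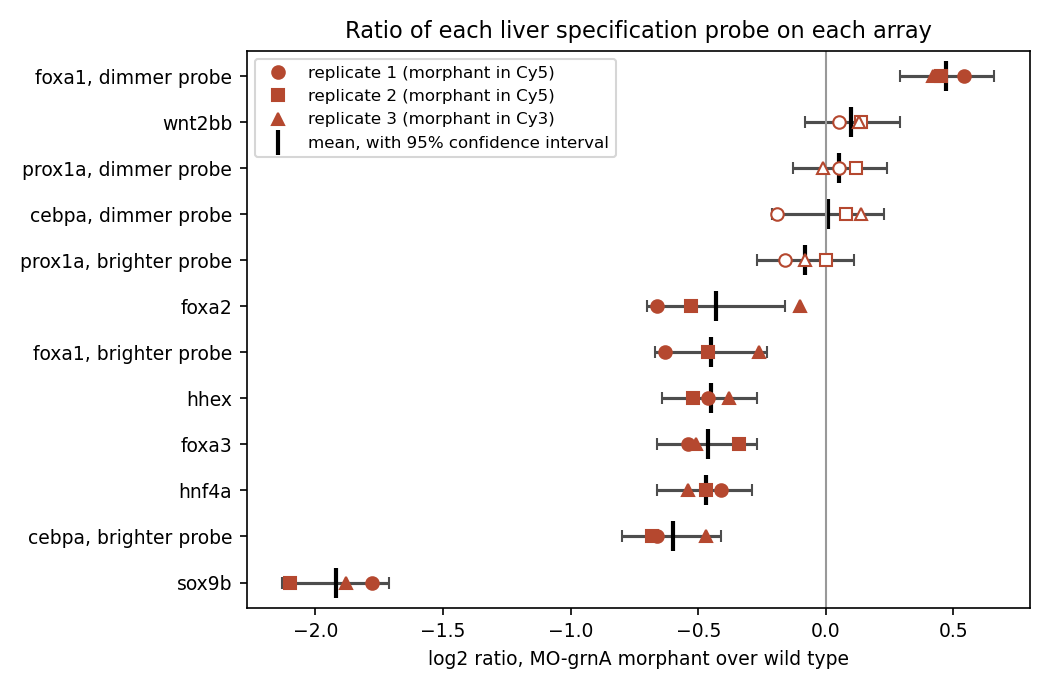
Log2 ratio of morphant over wild type (horizontal axis) of each of the 12 probes, with 1 marker per array, filled where the adjusted p was under 0.05, and a black bar for the mean with its 95% confidence interval. The sox9b probe stands apart near -1.92, 6 probes lie between -0.60 and -0.43, and the dimmer foxa1 probe lies at 0.47.

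All 12 probes were well above background in both channels of the 3 arrays, and none was saturated or marked as an outlier. Levels below are log2 normalized intensities of a probe, and they are compared only within that probe. Standard errors (SE) are moderated, with n = 3 arrays. The log2 ratios of the arrays ran together across all tested probes, with Pearson's r of 0.818 to 0.851 between pairs of arrays, and 7.49% of spots were marked on replicate 1 against 0.915% and 0.909% on replicates 2 and 3. Replicate 1 was on slide 1 and the others on slide 2, and scan dates split the arrays in the same way. The targeted gene was no lower: grna had ratios of 0.19, 0.34 and 0.39 (mean 0.31, SE 0.08, adjusted p = 0.0227 in limma). Its adjusted p was 0.107 where replicate 2 was left out, 0.109 where replicate 3 was, and 0.424 with median centring. Its relative grnb rose by 0.58 (SE 0.13, adjusted p = 0.00867, or 0.277 after median centring) and grna.2 read 0.07 (adjusted p = 0.562). The labels do not say whether the morpholino blocks translation or splicing, so the transcript does not check them.

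The inducing signal showed no difference past the threshold. The ligand gene wnt2bb had levels of 7.61, 7.68 and 7.50 in morphants and 7.57, 7.54 and 7.37 in WT embryos. The groups overlapped, although the morphant channel was slightly the brighter on every array. The mean log2 ratio was 0.10 (SE 0.08, 95% confidence interval -0.08 to 0.29, adjusted p = 0.336 in limma). This probe was dim, and the offset added to intensities pulls ratios of dim probes toward 0. The brightest probes of the FOXA genes were far brighter, so the interval cannot be set against their falls. The wnt2bb ratio was 0.15 without the offset (SE 0.09) and 0.09 with Agilent's own log ratio (SE 0.09). With median centring it was 0.19, where the SE was 0.22.

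The fork-head genes foxa2 and foxa3 were lower in morphants. The foxa2 probe had levels of 13.68, 13.81 and 14.05 in morphants and 14.34, 14.34 and 14.15 in WT embryos. The groups did not overlap, but the gap was wide on replicates 1 and 2 and narrow on the dye-swapped replicate 3. The log2 ratio of foxa2 was -0.66, -0.53 and -0.10 by array, with a mean of -0.43 (SE 0.12, 1.35-fold lower, adjusted p = 0.0211). It was -0.66 on slide 1 and -0.32 on slide 2, and the arrays with morphant RNA in Cy5 averaged -0.59. The foxa2 call was lost in 3 settings, at an adjusted p of 0.0754 when replicate 2 was left out, 0.0578 on Agilent's own log ratio and 0.71 after median centring.

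For foxa3, which in fish also marks the hatching gland, the levels were 12.85, 12.39 and 12.13 in morphants and 13.39, 12.73 and 12.64 in WT embryos. Replicate 1 was the brighter array in both channels, so the ranges overlapped across arrays, while morphants were lower within each array. The mean log2 ratio of foxa3 was -0.46 (SE 0.08, 1.38-fold lower, adjusted p = 0.00402). Its ratios of -0.54, -0.34 and -0.51 showed no separation of the dye-swapped array from the others.

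The third fork-head gene, foxa1, had probes that moved in opposite directions. Its brighter probe gave 13.67, 13.43 and 13.62 in morphants and 14.30, 13.89 and 13.87 in WT embryos. Its dimmer probe gave 9.61, 9.24 and 9.16 in morphants and 9.07, 8.79 and 8.74 in WT embryos. Neither probe's groups overlapped, and morphants were below WT on the brighter probe and above it on the dimmer one. A separation with morphants higher was seen in 18.3% of tested probes, and one with morphants lower in 19.3%. The brighter probe fell by 0.45 on the log2 scale (SE 0.10, 1.36-fold lower, adjusted p = 0.00813), with -0.63 on slide 1 and -0.36 on slide 2. The dimmer probe rose by 0.47 (SE 0.08, 1.39-fold higher, adjusted p = 0.00298). The mean of both probes was 0.01 (adjusted p = 0.909), so the foxa1 call depends on which probe stands for the gene.

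Of the hepatoblast genes, hhex fell and prox1a did not pass. The homeobox gene hhex had levels of 13.63, 13.35 and 13.50 in morphants and 14.09, 13.87 and 13.87 in WT embryos. The groups did not overlap, and all 3 arrays showed a gap of similar size. Its log2 ratios were -0.46, -0.52 and -0.38, with a mean of -0.45 (SE 0.08, 1.37-fold lower, adjusted p = 0.00373).

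For prox1a, a homeobox gene needed for hepatoblast migration in the mouse, the brighter probe gave 8.97, 9.14 and 9.03 in morphants and 9.13, 9.14 and 9.11 in WT embryos. The dimmer probe gave 8.61, 8.49 and 8.31 in morphants and 8.56, 8.37 and 8.31 in WT embryos. Both pairs of groups overlapped. The mean log2 ratios were -0.08 (SE 0.08, 95% confidence interval -0.27 to 0.11, adjusted p = 0.49) and 0.05 (SE 0.08, 95% confidence interval -0.13 to 0.24, adjusted p = 0.63). The difference between hhex and prox1a was not tested.

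**Figure D2:**
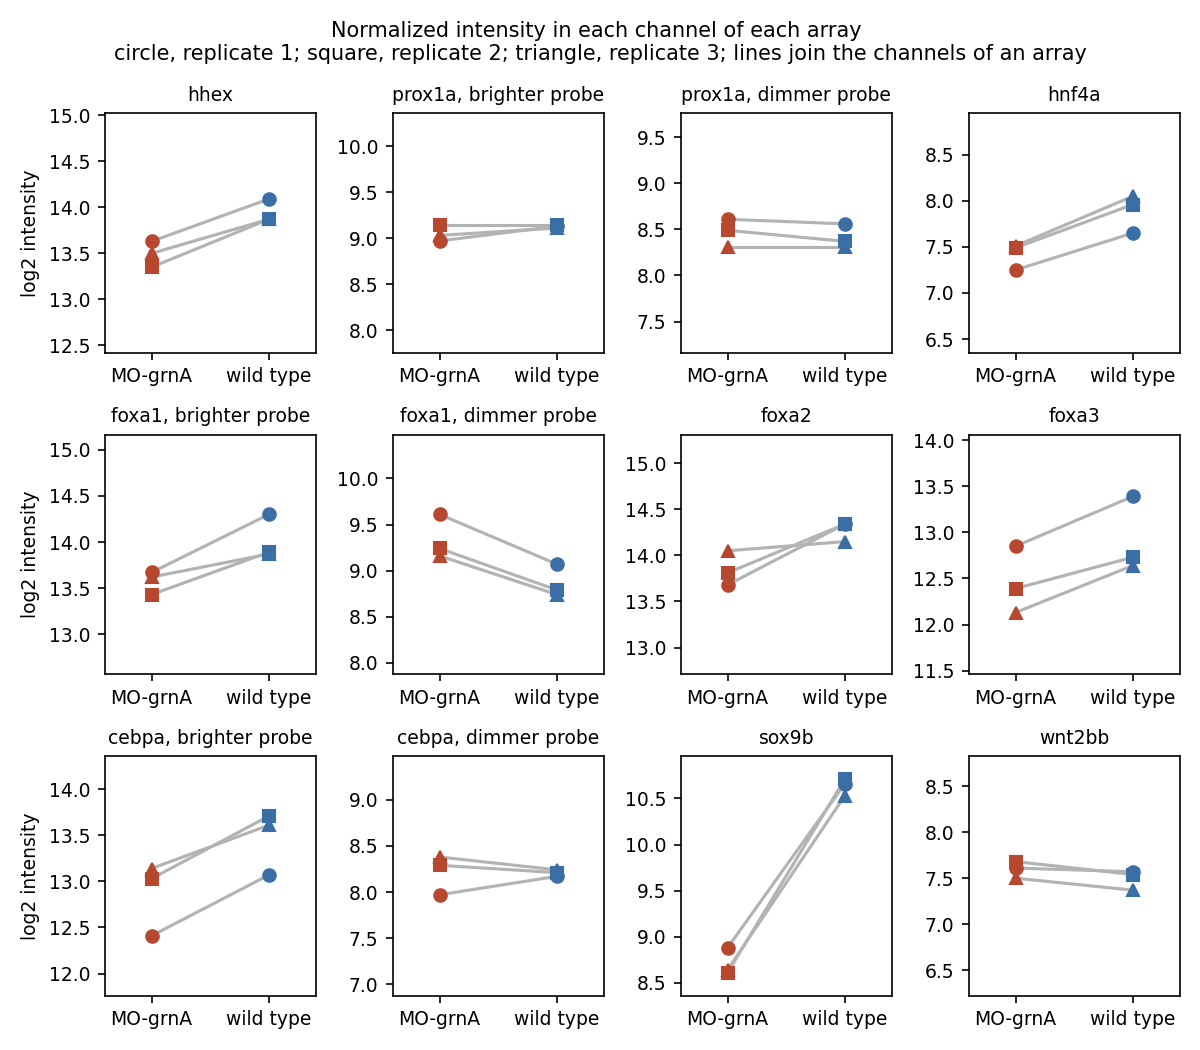
Log2 normalized intensity of each of the 12 probes in the MO-grnA channel and the wild-type channel, with 1 line per array and panels of equal height in log2 units. The sox9b lines rise steeply toward wild type, those of prox1a are nearly level, and those of the dimmer foxa1 probe run the other way.

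The hepatocyte factor genes were lower too. The nuclear receptor gene hnf4a had levels of 7.25, 7.49 and 7.51 in morphants and 7.65, 7.96 and 8.05 in WT embryos. The groups did not overlap. The log2 ratios of hnf4a were -0.41, -0.47 and -0.54, with a mean of -0.47 (SE 0.08, 1.39-fold lower, adjusted p = 0.00299). This probe was dim, and the offset of 50 added to intensities pulls ratios of dim probes toward 0. Without the offset the ratio was -0.66, and with Agilent's own log ratio -0.71.

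The brighter probe of cebpa, whose product keeps hepatocytes differentiated, gave 12.41, 13.03 and 13.14 in morphants and 13.07, 13.71 and 13.61 in WT embryos. Ranges overlapped across arrays because replicate 1 was dim in both channels, and morphants were lower within each array. The ratios were -0.66, -0.68 and -0.47, with a mean of -0.60 (SE 0.09, 1.52-fold lower, adjusted p = 0.00122). The dimmer cebpa probe gave 7.97, 8.29 and 8.38 in morphants and 8.17, 8.21 and 8.24 in WT embryos. Its groups overlapped, with morphants lower on replicate 1 and higher on the other arrays (mean 0.01, SE 0.09, 95% confidence interval -0.21 to 0.23, adjusted p = 0.956). The mean of both cebpa probes was -0.30 (adjusted p = 0.0158).

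The biliary gene sox9b had the largest difference of the 9 genes. Its levels were 8.88, 8.61 and 8.64 in morphants and 10.66, 10.71 and 10.53 in WT embryos. The groups were far apart and neither varied much between arrays. The log2 ratios were -1.78, -2.10 and -1.88, with a mean of -1.92 (SE 0.09, 95% confidence interval -2.13 to -1.71, 3.79-fold lower, adjusted p = 7.84e-06). A change of this size or larger in either direction was seen in 0.535% of tested probes, and 2.21% of tested probes were called lower by at least 2-fold. It was called in all 10 alternative settings, with ratios of -2.14 to -1.77. The paralog sox9a, a cartilage factor gene, fell by 0.69 (SE 0.09, adjusted p = 0.00091) on its brighter probe, while its dimmer probe read -0.01. Whether probes of paralogs bind each other's transcript was not tested.

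By their brightest probes, 5 of the 9 genes had morphant levels wholly below WT levels, namely sox9b, hnf4a, hhex, foxa1 and foxa2. Such a separation was seen in 21.6% of named genes. The brightest 10% of tested probes, which hold those of hhex, foxa1 and foxa2, had 21.7% called lower and a median ratio of 0. The next 10%, with foxa3 and cebpa, had 23.9% called lower and a median of -0.03.

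The disagreement between probes of foxa1 and cebpa was set against that of all genes with more than 1 tested probe, a comparison chosen after seeing the values. The brightest probe minus the dimmest differed by -0.92 for foxa1 (SE 0.12, adjusted p = 0.00956 in limma over 2677 genes), with -1.18, -0.90 and -0.68 by array. For cebpa it differed by -0.61 (SE 0.09, adjusted p = 0.0156), and for prox1a by -0.13 (SE 0.08, adjusted p = 0.326). Of the 2677 genes, 16.6% had a difference past the threshold, and 4.74% had probes as far apart as those of foxa1. Probes called in opposite directions were found in 63 genes (2.35%), foxa1 among them. The foxa1 probes lay 4.67 log2 units apart in intensity and the cebpa probes 4.98. Among 922 genes with probes at least 3 units apart, the brightest probe had the lower ratio in 76.8%, with a median difference of -0.19, against 62.9% over all 2677 genes. The part of probe brightness in the foxa1 and cebpa values was not tested.

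**Figure D3:**
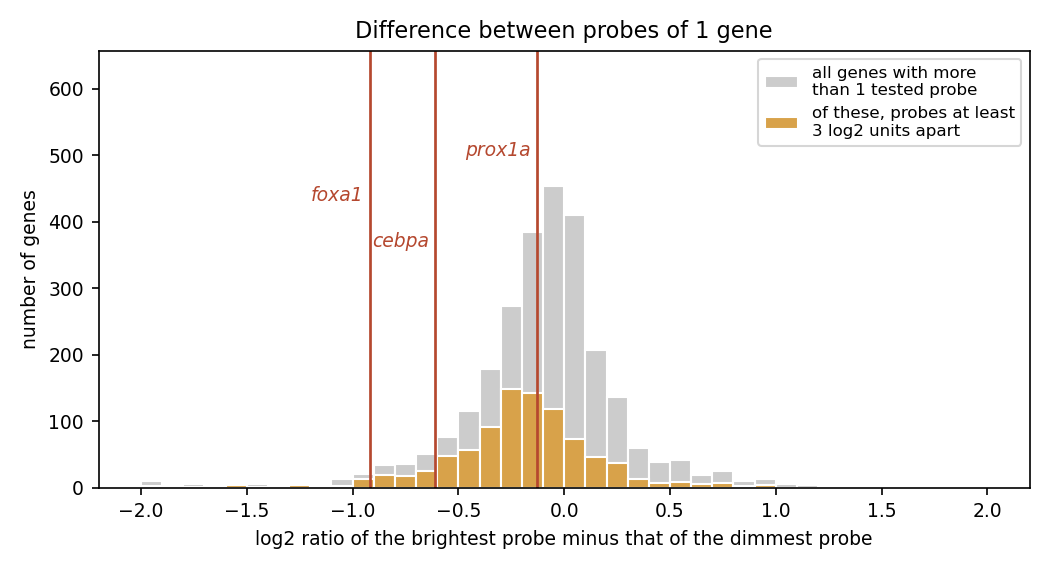
Number of genes (vertical axis) by the log2 ratio of the brightest probe minus that of the dimmest (horizontal axis), for 2677 genes with more than 1 tested probe in grey and for the 922 with probes at least 3 log2 units apart in gold; values beyond 2 units are in the end bars. Lines mark foxa1 at -0.92, cebpa at -0.61 and prox1a at -0.13, and most genes lie close to 0.

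Other hepatic transcription factors had more falls than rises. Of 15 tested, 7 fell, 1 rose and 7 did not pass, with a median of -0.28. The counts of this list and of those that follow stand beside 22.0% of named genes called lower and 19.3% called higher. The endoderm and heart factor gene gata5 fell by 1.06 (SE 0.12, adjusted p = 0.000388), tbx3a by 0.74 (SE 0.08, adjusted p = 0.000339) and the hnf4a paralog hnf4b by 0.67 (SE 0.08, adjusted p = 0.000541). The second gata5 probe read -0.65 and the second tbx3a probe -0.19. The leucine zipper factor gene cebpd rose by 0.32 (SE 0.10, adjusted p = 0.0312), a call that ended with a dye term and without replicate 1 or 3. The second cebpd probe read 0.53 (SE 0.09, adjusted p = 0.00269). The hnf1ba paralog hnf1bb, named after its value was seen, read -0.28 (SE 0.14, adjusted p = 0.167). Its brighter probe was marked on replicate 1 and not tested. That probe read -0.79 over the unmarked arrays, with -0.76 and -0.82, and -1.37 on the marked one.

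Liver-inducing signals and their receptors went both ways. Of 21 tested, 8 fell, 3 rose and 10 did not pass, with a median of -0.16. Ligand genes fgf8a and bmp4, of families that induce liver fate in the mouse, fell by 0.73 (SE 0.08, adjusted p = 0.000335) and 0.62 (SE 0.11, adjusted p = 0.00388). The other fgf8a probes read -0.75 and -0.45. A dimmer bmp4 probe, marked on 1 array and not tested, read 0.09 over the unmarked arrays, with no array lower. The ligand gene fgf1a rose by 0.84 (SE 0.09, adjusted p = 0.000362) and the Wnt receptor gene fzd5 by 0.65 (SE 0.08, adjusted p = 0.000595). A brighter fgf1a probe, not tested because it was marked on 1 array, read -0.10 over the unmarked arrays. With Agilent's own log ratio the rise of fgf1a was 1.47. The number of falls in this list dropped to 4 with a dye term and to 3 without replicate 2 or 3.

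Genes needed for hepatic outgrowth had a median of 0.11, with 4 rises and 3 falls among 14 tested. The histone deacetylase gene hdac3 rose by 0.65 (SE 0.08, adjusted p = 0.000789) and uhrf1, which maintains DNA methylation, by 0.56 (SE 0.10, adjusted p = 0.00393). The other uhrf1 probes read 0.34 and -0.21. The RNA methyltransferase gene trdmt1 rose by 0.32 (SE 0.08, adjusted p = 0.0186), a call that ended with a dye term and without replicate 2. The Notch ligand gene jag2b fell by 0.47 (SE 0.10, adjusted p = 0.00931). The list had 1 fall in place of 3 without replicate 1 or 2, with a dye term, without the offset and with Agilent's own log ratio.

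Hepatocyte products had more rises than falls. Of 11 tested, 5 rose, 2 fell and 4 did not pass, with a median of 0.18. The rises include rbp4 (0.30, adjusted p = 0.0242 in limma), which is also counted among the yolk syncytial layer markers below. The part of the yolk syncytial layer in the values of this list was not tested. Rises were 0.53 for the fibrinogen chain gene fgg (SE 0.08, adjusted p = 0.00179) and 0.45 for the selenium carrier gene selenop (SE 0.08, adjusted p = 0.0041). The remaining rises were 0.38 for fabp10a (SE 0.09, adjusted p = 0.0112 in limma) and 0.48 for f2 (SE 0.12, adjusted p = 0.0163). A dimmer f2 probe read 0.44. The vitamin D binding protein gene gc had levels of 7.36, 7.74 and 7.87 in morphants and 9.75, 9.99 and 9.95 in WT embryos. It fell by 2.24 (SE 0.09, 4.72-fold lower, adjusted p = 4.37e-06), the largest difference in the list. A dimmer gc probe read -0.45 (1.36-fold lower, adjusted p = 0.00419 in limma), but it was well above background on none of the morphant channels. The plasma glycoprotein gene ahsg1 fell by 0.61 (SE 0.11, adjusted p = 0.00326), and its ratio was -1.08 without the offset and -1.56 with Agilent's own log ratio. The rises numbered 2 without replicate 3.

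Early endoderm regulators, which act before the liver genes, had 3 falls and no rise among 7 tested, with a median of -0.18. The 7 also include mcu, the mitochondrial calcium uniporter gene, which is not such a regulator and read -0.08 (adjusted p = 0.617 in limma). The SOX gene sox32, needed for all zebrafish endoderm, had levels of 7.09, 7.46 and 7.57 in morphants and 9.02, 9.24 and 9.45 in WT embryos. It fell by 1.87 (SE 0.08, adjusted p = 5.86e-06). The homeobox gene mixl1 fell by 1.13 (SE 0.10, adjusted p = 0.000129), with -0.24 on a dimmer probe, and the Nodal co-receptor gene tdgf1 by 0.74 (SE 0.08, adjusted p = 0.000327). Both sox17 probes were well above background in no morphant channel and on 1 array in the WT channel.

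**Figure D4:**
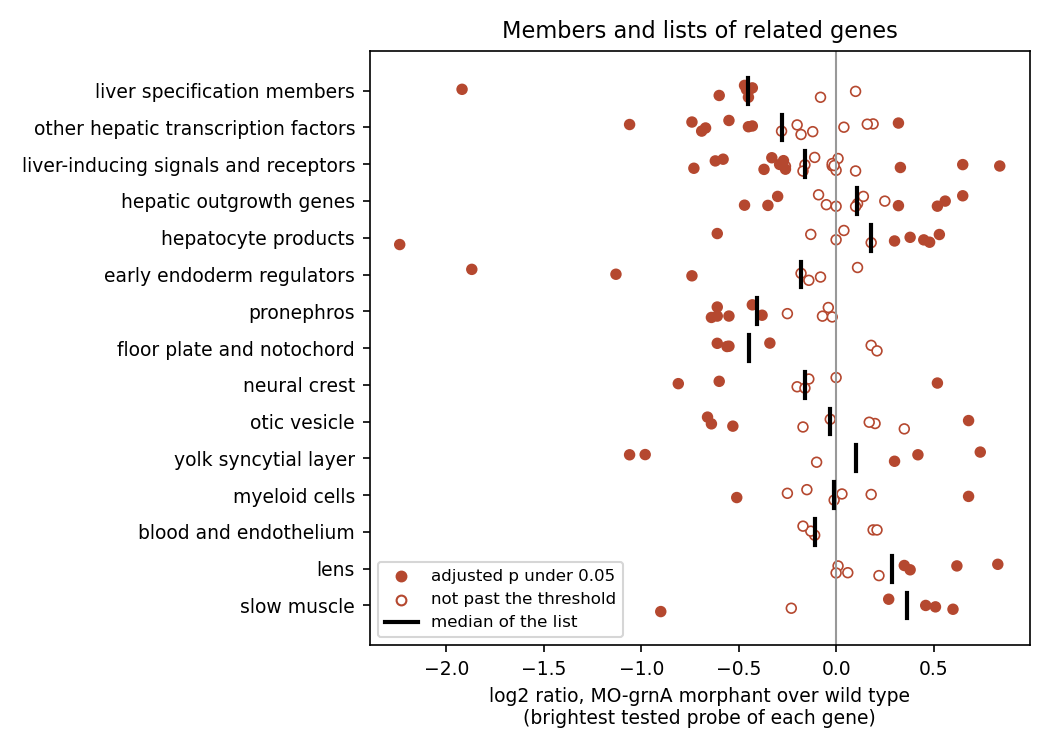
Log2 ratio of morphant over wild type (horizontal axis) of each tested gene in the liver specification set and in each related list, by its brightest tested probe. Filled circles had an adjusted p under 0.05 and black bars are medians, which run from -0.45 in the liver specification set to 0.37 in slow muscle.

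Because the listed genes are active in other tissues, markers of those tissues are given beside them. A summed level is the log2 of the intensities of a list's genes added together, so bright genes weigh most in it. Of all named genes, 22.0% were called lower and 19.3% higher. Floor plate and notochord markers, tissues that also express FOXA genes, had 4 falls and no rise among 6 tested. Their summed log2 level was 15.33 to 15.48 in morphants and 15.84 to 15.92 in WT embryos, and their median ratio was -0.44. The notochord genes tbxta and noto fell by 0.61 (SE 0.08, adjusted p = 0.00095) and 0.56 (SE 0.08, adjusted p = 0.00129). The hedgehog ligand genes shhb and shha fell by 0.55 (SE 0.09, adjusted p = 0.00197) and 0.34 (SE 0.09, adjusted p = 0.02). The shha call ended in 4 settings besides median centring. The netrin genes of the list went the other way without passing, with 0.18 for ntn1a (adjusted p = 0.203 in limma) and 0.21 for ntn1b (adjusted p = 0.195). A second ntn1a probe read 0.21. With a slide block, and also without replicate 3, the list had 1 rise. The part of these tissues in the FOXA values was not tested.

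Pronephros markers had 6 falls and no rise among 10 tested, with a median of -0.40 and a summed level of 15.19 to 15.29 in morphants and 15.55 to 15.65 in WT embryos. The falls included pax2a (-0.64, SE 0.08, adjusted p = 0.000758), a kidney and ear factor gene, and nphs1 (-0.61, SE 0.10, adjusted p = 0.00225), which encodes the podocyte protein nephrin. The nphs1 ratio was -0.92 without the offset and -1.16 with Agilent's own log ratio. Also lower were slc4a4a (-0.55, adjusted p = 0.00152), a bicarbonate transporter gene, and podxl (-0.43, adjusted p = 0.00599), a podocyte surface protein gene whose dimmer probes read 0.06 and -0.03. No wt1a probe was well above background on all 3 arrays of either channel.

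Tissues that express sox9b gave mixed values. Neural crest markers had 2 falls and 1 rise among 7 tested, or 42.9% called, close to the 41.3% of named genes called in either direction. Their median was -0.16 and their summed level 15.95 to 16.00 in morphants and 16.17 to 16.34 in WT embryos. The crest gene sox10 fell by 0.60 (SE 0.10, adjusted p = 0.00262) and snai1b, well above background on 2 of 3 arrays in the morphant channel, by 0.81 (SE 0.08, adjusted p = 0.000281). The snai1b ratio was -1.41 without the offset and -2.10 with Agilent's own log ratio. The pigment cell factor gene mitfa rose by 0.52 (SE 0.08, adjusted p = 0.00203). Otic vesicle markers had 3 falls and 1 rise among 9 tested (44.4% called) and a median of -0.03. The falls include pax2a, which is also counted among the pronephros markers. With a gene's probes averaged, the list had 2 rises, 1 fall and a median of 0.11. Their summed level was 16.75 to 16.99 in morphants and 17.23 to 17.31 in WT embryos. The brightest gene of the list, oc90, weighs most in that sum, with 15.58 to 15.93 in morphants and 16.32 to 16.49 in WT embryos. There the otolith protein gene oc90 fell by 0.66 (SE 0.08, adjusted p = 0.000709) on its brightest probe. A dim oc90 probe, well above background on 2 arrays in the WT channel, was called higher (1.14, SE 0.10, adjusted p = 0.000106 in limma). The direction of oc90 therefore depends on the probe. The gene eya1 fell by 0.53 (SE 0.08, adjusted p = 0.00192) while its dimmer probe read 0.31 (adjusted p = 0.0625). The gene pax5 rose by 0.68 (SE 0.08, adjusted p = 0.000503). The part of neural crest and ear in the sox9b value was not tested.

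Blood and endothelium markers, beside hhex, had no call among 5 tested, with a median of -0.11 and a summed level of 14.33 to 14.62 in morphants and 14.37 to 14.62 in WT embryos. Other tested probes of 2 of these genes were called lower, fli1 at -0.39 (adjusted p = 0.00714) and lmo2 at -0.49 (adjusted p = 0.00232), while their brightest probes read 0.19 and 0.21. The endothelial marker kdrl was well above background on 1 array in each channel. Myeloid markers, beside cebpa, had 1 fall, of the macrophage gene mpeg1.1 (-0.51, SE 0.10, adjusted p = 0.00669), and 1 rise among 7 tested. The rise was in the receptor gene csf1ra (0.68, SE 0.12, adjusted p = 0.00334), well above background on 1 array in the WT channel. Its size depends on the offset: it was 1.48 without the offset and 2.58 with Agilent's own log ratio. Without replicate 1, 2 myeloid genes fell. The myeloid median was -0.01 and the summed level 14.25 to 14.33 in morphants and 14.20 to 14.39 in WT embryos. The part of endothelium in the hhex value and of myeloid cells in the cebpa value was not tested.

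Yolk syncytial layer markers, beside hhex, hnf4a and cebpa, had 3 rises and 2 falls among 6 tested, with a median of 0.10. Their summed level was 17.21 to 17.39 in morphants and 16.94 to 17.09 in WT embryos. The apolipoprotein genes apoa4a and apoa2 rose by 0.74 (SE 0.08, adjusted p = 0.000348) and 0.42 (SE 0.09, adjusted p = 0.00778). The homeobox gene mxtx1, listed as a marker of this layer, fell by 0.98 (SE 0.08, adjusted p = 8.05e-05). The apoa2 call ended without replicate 3 (adjusted p = 0.0524), when this list had 1 rise. The heart and endoderm factor gene gata5 and the hepatocyte product gene rbp4, both given above, are in this list too. The part of the yolk syncytial layer in the values of hhex, hnf4a and cebpa was not tested.

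Lens and slow muscle, which express prox1a, had more rises than falls. Lens markers had 4 rises and no fall among 8 tested, a median of 0.28 and a summed level of 13.10 to 13.40 in morphants and 12.90 to 13.03 in WT embryos. The crystallin genes crygn2 and crybb1 rose by 0.83 (SE 0.08, adjusted p = 0.000193) and 0.62 (SE 0.09, adjusted p = 0.00111), cryba4 by 0.38 (adjusted p = 0.00873) and cryba2a by 0.35 (adjusted p = 0.0139). The calls of cryba4 and cryba2a ended without replicate 2 or 3, and the list then had 2 rises. Slow muscle markers had 4 rises and 1 fall among 6 tested, a median of 0.37 and a summed level of 16.71 to 16.92 in morphants and 16.62 to 16.72 in WT embryos. The myosin genes smyhc1 and smyhc2 rose by 0.60 (SE 0.15, adjusted p = 0.0161) and 0.51 (SE 0.12, adjusted p = 0.0109) and the factor gene mef2ca by 0.46 (SE 0.10, adjusted p = 0.00969), while prdm1a, which directs slow fibre fate, fell by 0.90 (SE 0.10, adjusted p = 0.000329). The smyhc2 probe was well above background on 1 array in the WT channel, and its rise was 0.95 without the offset and 1.43 with Agilent's own log ratio. The smyhc1 rise was 0.36 without replicate 1, when 2 genes of the list fell. Dimmer smyhc1 and smyhc2 probes read -0.20 and -0.02, and no slow muscle gene was called higher without replicate 3.

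**Figure D5:**
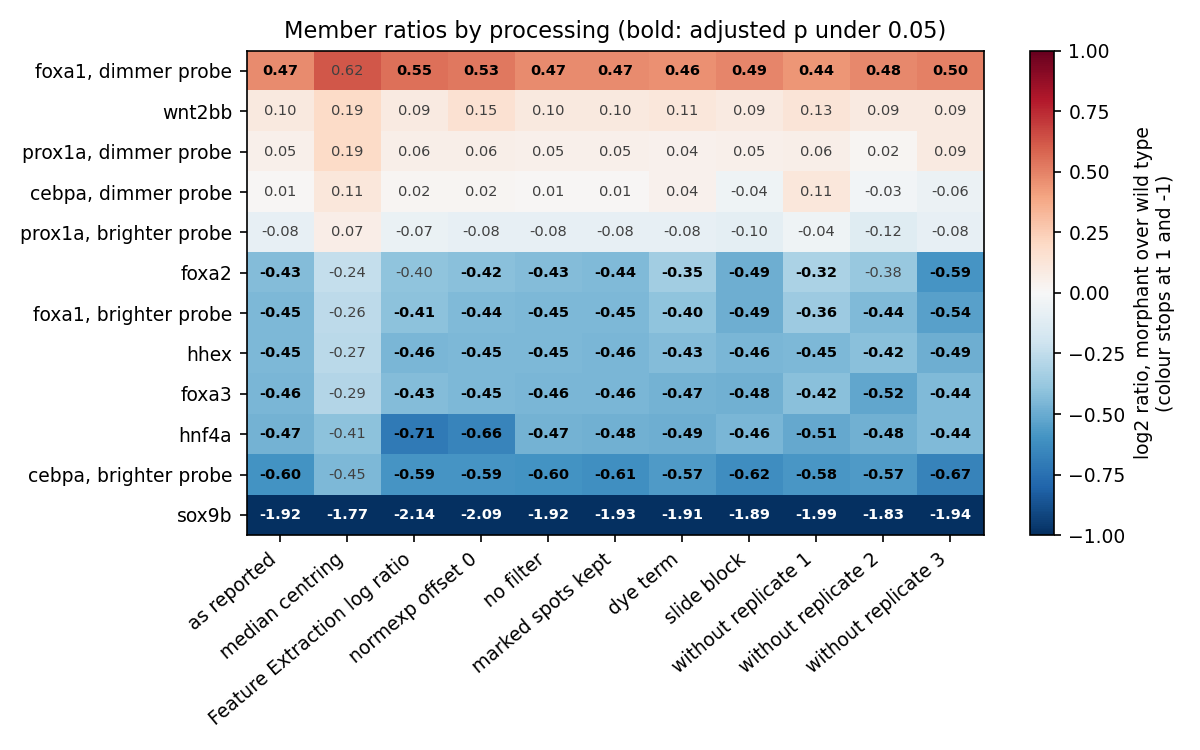
Log2 ratio of morphant over wild type of each of the 12 probes (rows) under the reported processing and 10 alternatives (columns), in bold where the adjusted p was under 0.05; colour stops at 1 and -1. The sox9b row is bold throughout, and in the median centring column no other probe is bold.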

How the data were processed

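The arrays, of Agilent design 019161, were read by the authors in Agilent Feature Extraction, version 8.5.1.1 per the submitters' processing notes and 10.5.1.1 per the file headers. The deposited files give median intensity and local background intensity of both dyes per spot, and, per the file headers, a log10 ratio (Cy5 over Cy3). The deposited value table held the same log10 ratios with the sign of replicate 3 turned, and each column's median was 0. Direction rests on the dyes given per the labels.

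From the median intensities, background was corrected with normexp (offset 50) and ratios were loess-normalized within arrays (span 0.3) in limma 3.58.1 under R 4.3.3. Control and marked spots had weight 0, replicate 3 was turned, and spots of a probe were averaged. Probes well above background on all 3 arrays in either RNA channel, with an unmarked spot on each array, were tested against 0 with lmFit and eBayes, two-sided, with Benjamini-Hochberg adjustment. The 3 arrays limit the precision, leaving 2 residual degrees of freedom per probe. Genes were named by accession through a RefSeq table of another build than the files', so no coordinates are given. A gene was read by its brightest tested probe.

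The genes and lists were chosen with earlier results of these data known. The text names every granulin gene tested and, from each list, up to 4 called genes of smallest p, and the called gene of smallest p in the other direction. The gene rbp4 is named because its rise is counted in both the hepatocyte product and yolk syncytial layer lists. The genes fabp10a and f2 are named so that every rise of the hepatocyte product list is given. Lists were given by counts and medians, with no set test. Alternatives were median centring, Agilent's log ratio, no offset, no filter on dim probes, marked spots kept, a dye term, a slide block, the mean of a gene's probes, and each replicate left out.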

Additional observations from a re-analysis of the deposited data

How the results depend on the processing

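With median centring in place of loess, 409 probes were called higher and 306 lower in morphants, against 4514 and 4921 with loess, so the share called higher was 57.2%, and 1 liver specification gene was called lower in place of 7. The median of all tested probes then stood at 0.10 and that of named genes at 0.13, with the 9 genes at -0.27. By array, the median of the 9 genes was 0.05, -0.07 and -0.82 on replicates 1, 2 and 3 with median centring. With loess it was -0.54, -0.47 and -0.38. The cause of this difference between the settings was not tested. Leaving out a replicate gave 2775 to 3875 probes called higher and 3412 to 4358 lower, lowest for both without replicate 3, with 6 to 7 of the genes lower. With a gene's probes averaged, 6 genes were lower. Signs turned for probes that were never called: the brighter prox1a probe read 0.07 with median centring, and the dimmer cebpa probe read -0.04 with a slide block, -0.03 without replicate 2 and -0.06 without replicate 3 (-0.06 to 0.11 with a replicate left out). Of 49 called genes named from the lists by smallest p, which leaves out rbp4, fabp10a and f2, 47 lost their call with median centring and 10 under some other alternative. The reported test is already paired, because each ratio sets morphant against WT RNA of 1 array. A further term for every replicate would leave no residual degrees of freedom. A slide block takes its residual spread only from replicates 2 and 3, because slide 1 held only replicate 1. With slide as a block, 6063 probes were called higher and 6157 lower, and 7 of the genes lower. With 3 arrays, small differences in dim probes, whose ratios the offset pulls toward 0, could not be resolved.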
